A study of Mus musculus with 4 samples.

Results

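The genes described here encode the proteasome, the protease that degrades ubiquitin-tagged proteins, together with its activators, its inhibitor and the chaperones that assemble it. They were chosen by symbol, as every gene whose symbol starts with Psm, one of the letters a to g and a digit, pseudogenes left out, which gave 47 of the 15887 genes of the table. By name 30 of them are constitutive subunits (14 of the 20S core and 16 of the 19S regulatory particle), 3 are immunoproteasome subunits, and the others are activators, an inhibitor and assembly chaperones. Among the 47, Psmc3ip carries the symbol pattern but encodes a cofactor of meiotic recombination and is no proteasome subunit, so it was counted among the 47 and kept out of the classes. No gene with the symbol Psmc2, Psma8, Psmb11 or Psme3ip1 was among the 15887, so these were not analysed here. The counts of Psmg3 equal those of the gene Gm26938 in every library, so their reads cannot be told apart, and the split of reads between Psme2 and its near-identical copy Psme2b is uncertain.

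The values come from cap analysis of gene expression (CAGE), which reads capped RNAs from the 5′ end, so that each transcript is counted once at its start whatever its length. Tooth germs of ICR mice were grown as organ cultures in 4 conditions with 1 library each, at 37 °C with DMSO (37°C_DMSO) or CPA (37°C_CPA) and at 25 °C with DMSO (25°C_DMSO) or CPA (25°C_CPA). CPA is cyclophosphamide, an alkylating drug that damages DNA, and DMSO is the solvent that the control cultures received. The sources differ on the dose (2.5 mM or 0.25 mM CPA), on the age at dissection (embryonic day 14.5 or E13.5) and on whether 4 days without CPA followed the 3 days with it, so these points are unsettled. Each library pooled several tooth germs of mixed epithelium and mesenchyme, and no donor was kept apart. The 4 libraries held 15101186 to 16449264 counts. All 6 dental epithelium markers and all 6 dental mesenchyme markers looked for were present in every library, with Shh in 25°C_DMSO the lowest at 128 counts. Presence does not mean that the tissue make-up was equal.

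In the proteasome, alpha and beta rings of the 20S core enclose the catalytic sites, and the 19S particle on its ends binds ubiquitin chains, removes them and unfolds the substrate with a ring of ATPases. In immune cells and under interferon, the constitutive catalytic subunits Psmb5, Psmb6 and Psmb7 are replaced by the immunoproteasome subunits Psmb8, Psmb9 and Psmb10, which changes the peptides that are made for antigen presentation. When proteasomes are short, the transcription factor encoded by Nfe2l1 raises the constitutive subunit genes together.

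A fold is the ratio of 2 libraries' counts after division by total count times edgeR's TMM factor, and a level is that scaled count in counts per 1000000 (CPM). The values in parentheses after a fold or a share are its exact 95% interval, which covers counting error only. A gene was measured where its higher library reached 50 counts, which held for 46 of the 47 members in at least 1 comparison. The exception was Psme4, an activator, with 32, 29, 21 and 41 counts in the order 37°C_DMSO, 37°C_CPA, 25°C_DMSO, 25°C_CPA, the order of all lists of 4 values. Since no condition was replicated, differences cannot be set against a spread between libraries, and no p-values were computed. Genes at least 2-fold higher or lower, the size the study used, were counted, and genes at least 25% higher or 20% lower, called past the small fold, beside the share of all measured genes past the same fold in the same direction. At 25 °C the epithelium markers had median log2 folds of -0.24 without CPA and -0.35 with CPA (4 and 5 of 6 below 1). The mesenchyme markers had 0.39 and 0.74 (5 and 6 of 6 above 1). The part of tissue make-up in the folds of members was not tested.

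More proteasome genes differed between the culture temperatures than between CPA and DMSO, and the same held for all genes. At the small fold, 29.1% of all genes were higher and 32.2% lower at 25 °C without CPA. With CPA over DMSO it was 15.7% and 17.8% at 37 °C, and 4.42% and 5.09% at 25 °C. Without the drug, 4 of 46 members were at least 2-fold higher at 25 °C (6.45% of all genes), namely Psmg4, Psmd9, Psmb3 and Psmc3ip, and 2 were at least 2-fold lower (11.5% of all genes), namely Psmb8 and Psmb9. With CPA in both cultures, 2 of 46 members were at least 2-fold higher at 25 °C (6.32% of all genes), Psmg4 and Psmd9, and 2 were at least 2-fold lower (10.9% of all genes), again Psmb8 and Psmb9. At the small fold, 20 of 46 members were higher and 3 lower at 25 °C without the drug, where 29.1% of all genes were higher and 32.2% lower. With CPA the counts were 12 higher and 2 lower, against 29.0% and 30.8% of all genes, so the share of higher members was close to the background there and the share of lower members was below it in both comparisons. These 2 temperature comparisons use different libraries. In both, 11 members were at least 25% higher (Psma2, Psma6, Psmb1, Psmb3, Psmb4, Psmb7, Psme2, Psmf1, Psmg2, Psmg4 and Psmd9), 2 were lower, and 0 went opposite ways at that fold. How many of all genes did so was not counted, so this agreement cannot be called particular to proteasome genes. The counts of members depend on the scaling, and the shares of all genes were counted with TMM only. Without CPA, DESeq2 and upper quartile factors kept the 4 and 2 members at 2-fold and the 20 and 3 at the small fold. Scaling to the total count gave 3 and 2 at 2-fold and 15 and 3 at the small fold. Scaling to Gapdh raised every temperature log2 fold by 0.43 without CPA and 0.66 with CPA, so that 42 and 44 members were past the small fold above and 2 and 2 below, and 9 and 12 were at least 2-fold higher with 1 and 1 lower. No scaling lowered the log2 folds by 0.21 and 0.06, which left 10 and 10 members past the small fold above and 4 and 3 below, and 2 and 2 at least 2-fold higher with 2 and 2 lower.

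**Figure D1:**
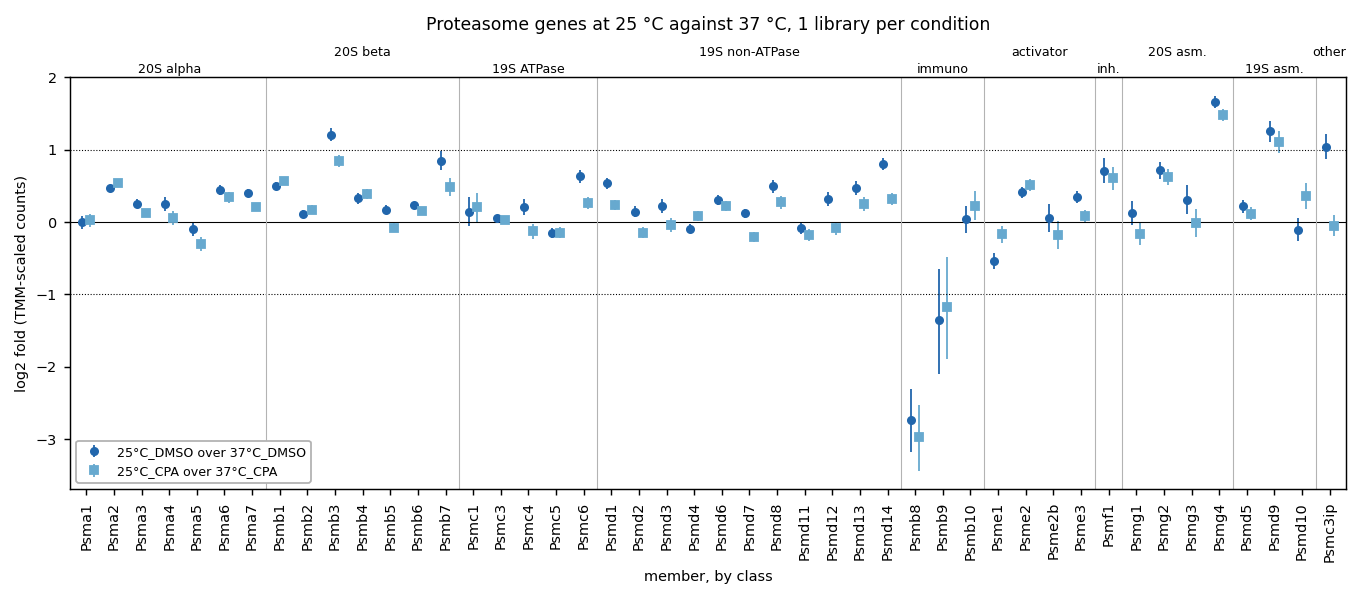
Log2 fold at 25 °C over 37 °C for the 46 measured members, grouped by class, without CPA (dark circles) and with CPA (light squares); bars are 95% counting intervals and dotted lines mark 2-fold. Most constitutive subunits lie between 0 and 1, Psmg4 and Psmd9 lie above 1 and Psmb8 and Psmb9 below -1 in both comparisons.

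Of the immunoproteasome genes, Psmb8 and Psmb9 had the lowest temperature folds of all members and Psmb10 did not follow them. Psmb8 (ENSMUSG00000024338.15; mm9 chr17:34334666-34338399, plus strand) encodes the inducible subunit that takes the place of Psmb5, the chymotrypsin-like site. Its counts were 393 in 37°C_DMSO and 392 in 37°C_CPA, against 51 in 25°C_DMSO and 48 in 25°C_CPA. Both 25 °C libraries were far below both 37 °C libraries, 6.65-fold lower without CPA (4.96 to 9.09) and 7.83-fold lower with CPA (5.79 to 10.8). In an organ culture, fewer cells of a type that carries the transcript and less transcript per cell cannot be told apart. The CPA folds of Psmb8 were 1.08 (0.937 to 1.246) at 37 °C and 0.917 (0.605 to 1.39) at 25 °C, with intervals that hold 1.

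Psmb9 (ENSMUSG00000096727.3), the inducible counterpart of the caspase-like subunit Psmb6, was the least abundant of the 3. Its counts were 68, 61, 23 and 26, again lower in both cultures at 25 °C. It was 2.55-fold lower without CPA (1.57 to 4.29) and 2.25-fold lower with CPA (1.40 to 3.71), and both intervals reach below 2-fold. With CPA at 37 °C its fold was 0.971 (0.676 to 1.39), and at 25 °C it had too few counts to be measured.

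Psmb10 (ENSMUSG00000031897.9; mm9 chr8:108459628-108462292, minus strand), the counterpart of the trypsin-like subunit Psmb7, did not share the low level of the other two at 25 °C. Its counts were 504, 379, 447 and 425 and its levels 29.8, 24.2, 30.6 and 28.3 CPM, with 37°C_CPA the lowest. The temperature folds were 1.03 (0.903 to 1.17) without CPA and 1.17 (1.02 to 1.35) with CPA, and CPA at 37 °C gave 0.814 (0.711 to 0.932). The temperature fold without CPA fell below 1 when the counts were not scaled (log2 fold -0.17) and with the total count (-0.0498). Since Psmb10 is the most abundant of the 3 at 25 °C, the summed counts of the immunoproteasome genes were 0.626-fold (0.561 to 0.697) at 25 °C without CPA and 0.625-fold (0.559 to 0.6997) with CPA, and without Psmb8 the sum had log2 folds of only -0.07 and 0.10.

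**Figure D2:**
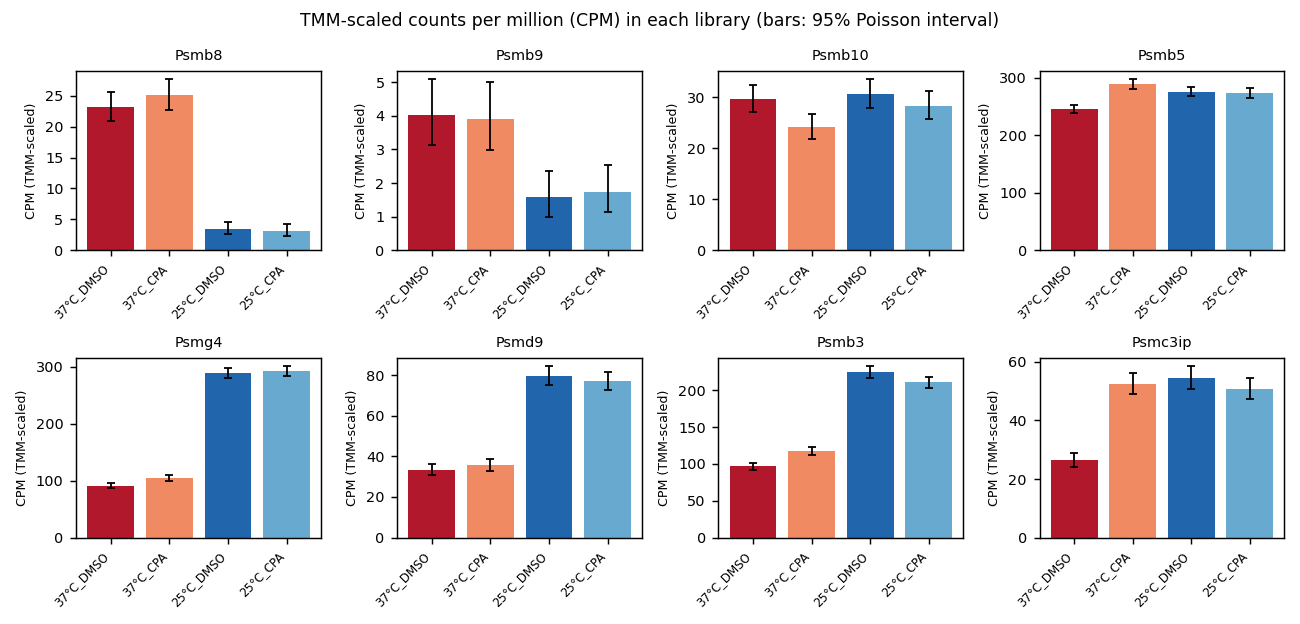
Levels in TMM-scaled CPM in each of the 4 libraries for 8 members, on linear axes from 0 with a scale for each gene; bars on the columns are 95% Poisson intervals. Psmb8 stands at 23.2 and 25.1 CPM in the 37 °C libraries and at 3.49 and 3.202 in the 25 °C libraries, Psmg4 and Psmd9 are more than 2-fold higher in both 25 °C libraries, and Psmc3ip is low in 37°C_DMSO alone.

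The share of the inducible gene within each catalytic pair does not depend on the scaling between libraries. Psmb8 made up 8.65% (7.85 to 9.50), 7.99% (7.24 to 8.78), 1.249% (0.932 to 1.64) and 1.16% (0.855 to 1.53) of the tags of Psmb5 and Psmb8. Psmb9 made up 0.967% (0.751 to 1.22), 0.970% (0.742 to 1.24), 0.325% (0.206 to 0.487) and 0.389% (0.254 to 0.570) of the tags of Psmb6 and Psmb9. For both pairs the intervals of the 25 °C libraries lie below those of the 37 °C libraries and the DMSO and CPA libraries of a temperature overlap. Psmb10 made up 39.0% (36.3 to 41.7), 28.8% (26.4 to 31.4), 26.8% (24.7 to 29.0) and 25.3% (23.2 to 27.4) of the tags of Psmb7 and Psmb10, a share in which 37°C_DMSO stands above the other 3 libraries. Over the 3 pairs together the inducible genes held 7.50% (7.05 to 7.96), 6.65% (6.22 to 7.10), 4.06% (3.73 to 4.42) and 3.99% (3.65 to 4.35).

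**Figure D3:**
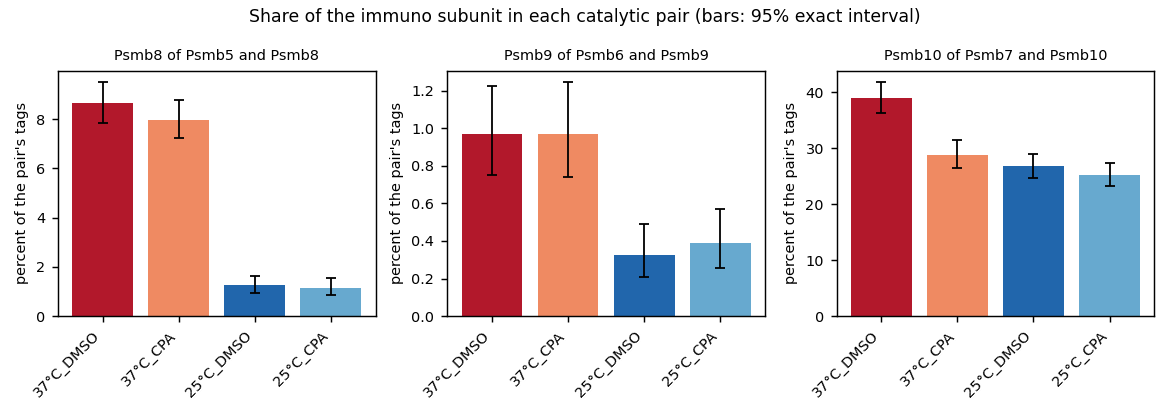
Percent of the tags of each catalytic pair that belong to the inducible gene, by library, with exact 95% intervals. The Psmb8 and Psmb9 shares are lower at 25 °C than at 37 °C with and without CPA, and the Psmb10 share is highest in 37°C_DMSO at 39.0%.

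The constitutive partners differed less. Psmb5 had 4152, 4517, 4031 and 4097 counts and temperature folds of 1.13 (1.08 to 1.18) without CPA and 0.946 (0.907 to 0.987) with it, on either side of 1, and both signs depended on the scaling. Psmb6, with 6968, 6231, 7051 and 6653 counts, had 1.17 (1.13 to 1.21) and 1.11 (1.08 to 1.15). The lower Psmb8 and Psmb9 shares at 25 °C thus went with lower counts of the inducible genes. Against 37°C_DMSO, the lower Psmb10 share at 25 °C went with a higher level of its partner, with Psmb10 at 30.6 and 28.3 CPM against 29.8. The lower Psmb10 share in 37°C_CPA went with both less Psmb10 (24.2 CPM) and more of its partner. Psmb7 (ENSMUSG00000026750.6; mm9 chr2:38443556-38499607, minus strand) had 788, 936, 1222 and 1257 counts, which gave 1.80-fold (1.64 to 1.97) at 25 °C without CPA and 1.40-fold (1.29 to 1.53) with CPA, and 1.29-fold (1.17 to 1.42) with CPA at 37 °C.

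Psmb8 and Psmb9 lie in the major histocompatibility complex on mouse chromosome 17, beside the peptide transporter genes Tap1 and Tap2. The starts of Psmb9 and Tap1 in RefSeq face away from each other at a distance of 226 bases, so the promoter windows of this pair overlap. The windows printed here, 250 bases before to 50 after the RefSeq start, are from RefSeq (GRCm38.p6) and were placed on mm9 by exact match, and they are shown because these 2 genes were the only members at least 2-fold lower. Capitals mark matches on either strand to CCAAT, read as ATTGG on the strand shown. For Psmb8 (chr17:34334890-34335189, plus strand) the RefSeq start lies downstream of the annotated 5′ end of the gene on mm9, and the sequence holds no CCAAT. The Psmb9 sequence (chr17:34324226-34324525, minus strand) holds CCAAT just before the start. Neither holds GAAANNGAA, the core of the interferon-stimulated response element, and a match or its absence says nothing about binding.
Psmb8: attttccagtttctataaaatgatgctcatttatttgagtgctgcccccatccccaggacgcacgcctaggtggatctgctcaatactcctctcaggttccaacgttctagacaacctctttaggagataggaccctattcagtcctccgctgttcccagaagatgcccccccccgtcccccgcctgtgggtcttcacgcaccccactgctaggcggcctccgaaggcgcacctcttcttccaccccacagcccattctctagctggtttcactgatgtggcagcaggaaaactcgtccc
Psmb9: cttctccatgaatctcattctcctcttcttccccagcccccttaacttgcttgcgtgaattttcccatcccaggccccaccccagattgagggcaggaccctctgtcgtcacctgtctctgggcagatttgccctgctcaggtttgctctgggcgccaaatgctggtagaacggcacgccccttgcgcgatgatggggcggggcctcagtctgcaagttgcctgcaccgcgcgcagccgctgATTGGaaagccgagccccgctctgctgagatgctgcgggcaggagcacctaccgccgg

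Tap1, whose promoter window overlaps that of Psmb9, differed from Psmb9 beyond counting error only in the CPA fold at 37 °C. At 25 °C the intervals of both genes overlapped, with Psmb9 at 0.392 (0.233 to 0.637) without CPA and 0.445 (0.270 to 0.714) with CPA. Tap1 had 86, 173, 62 and 74 counts, 0.836-fold (0.593 to 1.17) at 25 °C without CPA, 0.446-fold (0.335 to 0.589) with CPA, and 2.18-fold (1.67 to 2.86) with CPA at 37 °C, where Psmb9 did not follow. Tap2, its partner in the transporter, had 85, 81, 36 and 32 counts and folds of 0.491 (0.323 to 0.733) and 0.412 (0.265 to 0.627) at 25 °C.

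Genes of interferon signalling were lower at 25 °C as well. Of 12 measured genes of the interferon list, 7 were at least 2-fold lower (11.5% of all genes) and 0 higher (6.45%) at 25 °C without CPA (median log2 fold -1.04). With CPA 7 were lower (10.9% of all genes) and 1 higher (6.32%; median -1.05), where the medians of all genes were -0.01 and 0.00. Isg15, an interferon-induced ubiquitin-like modifier, had the lowest folds with 1873, 2251, 26 and 41 counts. Irf1, a transcription factor that activates Psmb9, had 322, 274, 173 and 196 counts and milder folds of 0.623 (0.515 to 0.751) without CPA and 0.746 (0.618 to 0.899) with CPA. Uba7, which activates the Isg15 modifier, was instead higher, with 320, 165, 423 and 422 counts and folds of 1.53 and 2.67.

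Macrophages and other leukocytes also carry immunoproteasomes. All 15 leukocyte markers were measured and none was at 0, the lowest being Adgre1 with 12 counts in 25°C_DMSO. Their summed level was 576, 387, 207 and 208 CPM, and that of the interferon list 445, 403, 209 and 232. At 25 °C without CPA 9 of the 15 markers were at least 2-fold lower (11.5% of all genes; median -1.87), with Cd52 and C1qc the lowest. With CPA 6 were lower (10.9% of all genes) and 1, Coro1a, higher (6.32%; median -0.71). With CPA at 37 °C the markers were also lower, 0.671-fold in sum (0.650 to 0.693), while Psmb8 was at 1.08 and Psmb9 at 0.971. At 25 °C CPA gave a summed fold of 1.00 (0.956 to 1.06). The part of leukocyte number or of interferon signalling in the Psmb8 and Psmb9 levels was not tested.

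Among 10272 other genes with at least 200 counts in their highest library, those whose pattern over the 4 libraries was closest to that of Psmb8, by distance of centred log2 levels, were Rtp4 (356, 350, 47 and 51 counts; distance 0.199), Esm1 (distance 0.220) and Kctd11 (distance 0.225). For Psmb9 they were Smc1a (distance 0.0498), Dusp5 (0.0507) and Junb (0.0895). The own counts of Psmb9 (68, 61, 23 and 26) were far below 200, so its pattern and this order are uncertain. For Psmb10 they were Mmp2 (4716, 3585, 4135 and 3988 counts; distance 0.0226), Fat4 (0.0290) and Slc27a1 (0.0303). With 4 libraries many genes share such a pattern.

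Most constitutive subunits had temperature folds modestly above 1. In the 37°C_DMSO library the levels of the 30 genes ran from 26.05 CPM for Psmc1 to 412 for Psmb6, and their sum was 5549, 5829, 6804 and 6588 CPM over the 4 libraries. Without CPA 25 of the 30 were above 1 at 25 °C and 13 were at least 25% higher, with 0 at least 20% lower (median log2 fold 0.26). With CPA 21 were above 1 and 6 at least 25% higher, with 0 past the small fold below (median 0.16). Of all genes 29.1% and 29.0% were at least 25% higher and 32.2% and 30.8% at least 20% lower, so the share of higher subunits was above the background without CPA and below it with CPA. The summed counts gave folds of 1.23 (1.22 to 1.24) and 1.13 (1.12 to 1.14). These medians kept their sign under every scaling tried, from 0.04 to 0.68 without CPA and from 0.10 to 0.83 with CPA, and the size depended on the scaling.

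In the 20S core more genes were past the small fold above than below at 25 °C. Of its 14 genes 7 were at least 25% higher without CPA (29.1% of all genes) and 6 with CPA (29.0%), and 0 were at least 20% lower (32.2% and 30.8% of all genes). Among the alpha subunits, which form the outer rings and the gate, Psma2 had the highest folds, 1.38 (1.34 to 1.43) and 1.46 (1.41 to 1.51), on 6303, 5416, 7516 and 7591 counts. Psma6 followed with 2843, 2525, 3343 and 3079 counts and folds of 1.36 (1.30 to 1.43) and 1.27 (1.21 to 1.34), and Psma7 had 1.32 (1.27 to 1.38) and 1.16 (1.11 to 1.21) on 4607, 4466, 5260 and 4956 counts. Psma5 was the only alpha gene below 1 beyond counting error in either comparison, with 1852, 1989, 1493 and 1543 counts and folds of 0.934 (0.872 to 1.00) and 0.809 (0.757 to 0.865). Psma1 lay at 1 in both, with 2143, 1976, 1846 and 1926 counts, and Psma3 and Psma4 lay between 1.04 and 1.19. Psma4 had 1690, 1823, 1739 and 1817 counts and folds of 1.19 (1.11 to 1.28) and 1.04 (0.974 to 1.11).

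Among the beta subunits outside the catalytic pairs, Psmb3 (ENSMUSG00000069744.7; mm9 chr11:97564713-97574814, plus strand), a structural subunit of the inner rings, stood out. Its counts were 1643 in 37°C_DMSO and 1843 in 37°C_CPA, against 3281 in 25°C_DMSO and 3164 in 25°C_CPA, which put both 25 °C libraries well above both 37 °C libraries. It was 2.31-fold higher (2.18 to 2.46) at 25 °C without CPA and 1.79-fold (1.69 to 1.90) with CPA, and 1.21-fold (1.14 to 1.30) with CPA at 37 °C. Psmb1, one of the most abundant members, had 6593, 5934, 8068 and 8430 counts and folds of 1.42 (1.37 to 1.47) and 1.48 (1.43 to 1.53). Psmb4 had 2955, 2645, 3201 and 3323 counts and folds of 1.26 (1.19 to 1.32) and 1.31 (1.24 to 1.38). Psmb2 had 4936, 4461, 4599 and 4819 counts and folds of 1.08 (1.04 to 1.12) and 1.13 (1.08 to 1.17), so no structural beta gene was below 1. Genes of 1 ring thus differed in their temperature folds by more than their counting intervals.

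The 19S regulatory genes showed less of this with CPA. Of 16 genes, 6 were at least 25% higher at 25 °C without CPA (29.1% of all genes) and 0 with CPA (29.0%), and 0 were at least 20% lower in either (32.2% and 30.8%). The share of higher 19S genes was thus near the background without CPA and below it with CPA. The ATPases, which unfold substrates, ranged without CPA from Psmc5 at 0.900 (0.855 to 0.946) to Psmc6 at 1.55 (1.46 to 1.65), and with CPA from 0.903 (0.858 to 0.950) to 1.20 (1.14 to 1.27) for the same genes. Psmc5 had 3504, 3216, 2720 and 2785 counts and Psmc6 1919, 2268, 2566 and 2620, so Psmc6 was lowest in 37°C_DMSO. Psmc3, the most abundant ATPase gene, had 6204, 5581, 5544 and 5449 counts and folds of 1.04 (0.999 to 1.07) and 1.02 (0.981 to 1.06). Psmc4 had 1450, 1534, 1448 and 1345 counts and folds of 1.16 (1.08 to 1.246) and 0.914 (0.849 to 0.985), on either side of 1. Psmc1, the least abundant constitutive gene, had 441, 390, 421 and 431 counts and folds of 1.11 (0.966 to 1.27) and 1.15 (1.00 to 1.33).

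Of the 11 non-ATPase genes, Psmd14 (ENSMUSG00000026914.15; mm9 chr2:61549751-61638433, plus strand), the deubiquitinase that removes ubiquitin chains at the entry, had the highest temperature folds. Its counts were 1761, 2110, 2651 and 2515, giving 1.74 (1.64 to 1.85) without CPA and 1.24 (1.17 to 1.32) with CPA. Psmd8, a lid subunit, had 2024, 2078, 2459 and 2408 counts and folds of 1.41 (1.33 to 1.49) and 1.21 (1.14 to 1.28), and the base subunit Psmd1 had 2568, 2946, 3218 and 3332 counts and 1.45 (1.38 to 1.53) and 1.18 (1.12 to 1.24). Psmd7, the lid partner of Psmd14, did not share these folds. Psmd7 had 3673, 3960, 3445 and 3284 counts and folds of 1.09 (1.04 to 1.14) and 0.865 (0.826 to 0.906), the latter the lowest of the class. The ubiquitin receptor Psmd4 (4302, 3311, 3485 and 3359 counts) and the lid subunit Psmd11 (2812, 2745, 2299 and 2329 counts) lay between 0.885 and 1.06 at 25 °C. Psmd2, Psmd3 and Psmd12 were above 1 without CPA (1.10, 1.17 and 1.251) and below 1 with it (0.905, 0.971 and 0.942), while Psmd6 (3060, 2977, 3259 and 3326 counts) and Psmd13 were above 1 in both.

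The activators differed in direction. Psme1 and Psme2 encode the partners of the 11S cap PA28, which interferon induces. Psme1 (ENSMUSG00000022216.17; mm9 chr14:56196960-56200366, plus strand) had 1738, 1261, 1034 and 1074 counts, with 37°C_DMSO the highest library. Its fold was 0.690 (0.638 to 0.745) at 25 °C and 0.786 (0.730 to 0.845) with CPA at 37 °C, 2 comparisons that share the 37°C_DMSO library, and 0.888 (0.818 to 0.964) between the CPA libraries. Psme2, in contrast, had 2345, 2054, 2691 and 2798 counts and folds of 1.33 (1.26 to 1.41) and 1.42 (1.34 to 1.505) at 25 °C, with part of its reads possibly counted under Psme2b (476, 497, 428 and 422 counts). Psme3, which forms a nuclear cap of its own, had 2142, 2361, 2350 and 2393 counts and folds of 1.27 (1.20 to 1.35) and 1.06 (0.998 to 1.12). The inhibitor Psmf1 (ENSMUSG00000032869.15) had 455, 514, 643 and 749 counts and was 1.64-fold higher (1.45 to 1.85) at 25 °C without CPA and 1.52-fold (1.36 to 1.70) with CPA. Psmf1 also had folds above 1 with CPA at both temperatures, 1.22 (1.08 to 1.39) and 1.14 (1.02 to 1.26).

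Assembly chaperones held the highest temperature folds of all members. Psmg4 (ENSMUSG00000071451.10; mm9 chr13:34254833-34270041, plus strand) helps build the alpha ring of the 20S core. Its counts were 1546 in 37°C_DMSO and 1631 in 37°C_CPA, against 4227 in 25°C_DMSO and 4370 in 25°C_CPA, so that both 25 °C libraries were clearly above both 37 °C libraries. It was 3.17-fold higher (2.99 to 3.36) at 25 °C without CPA and 2.79-fold (2.64 to 2.96) with CPA, while CPA gave 1.14 (1.07 to 1.23) at 37 °C and 1.007 (0.965 to 1.051) at 25 °C. Psmg2, which acts with Psmg1 on alpha ring assembly, had 1041, 1077, 1477 and 1595 counts and folds of 1.64 (1.52 to 1.78) and 1.54 (1.43 to 1.67). Its partner Psmg1 had 643, 687, 606 and 589 counts and folds of 1.09 (0.976 to 1.22) and 0.894 (0.7996 to 1.00), and Psmg3, the partner of Psmg4, had 405, 455, 433 and 433 counts and 1.24 (1.08 to 1.42) and 0.992 (0.868 to 1.13). In both partner pairs 1 gene was thus at least 25% higher at 25 °C with and without CPA and the other was not.

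Psmd9 (ENSMUSG00000029440.15; mm9 chr5:123678199-123700140, plus strand) is a chaperone of the 19S ATPase ring. Its counts were 565, 559, 1162 and 1155, higher in both 25 °C cultures. It was 2.38-fold higher (2.15 to 2.64) at 25 °C without CPA and 2.15-fold (1.95 to 2.39) with CPA, the latter with an interval that reaches below 2-fold. The other 19S chaperones had smaller folds. Psmd5 had 1891, 1834, 1900 and 1910 counts and folds of 1.16 (1.09 to 1.24) and 1.09 (1.02 to 1.16). Psmd10, the oncoprotein gankyrin, had 730, 480, 586 and 592 counts, with 37°C_CPA the lowest library, and folds of 0.930 (0.833 to 1.04) and 1.29 (1.14 to 1.45).

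The promoter windows of Psmg4 and Psmd9 are shown because these were the members at least 2-fold higher at 25 °C in both comparisons. Capitals mark matches to GAAANNGAA or to TGACNNNGC, the core of the antioxidant response element that NFE2L1 and NFE2L2 bind. In Psmg4 (chr13:34254583-34254882, plus strand) the match is to GAAANNGAA and lies just after the start, and in Psmd9 (chr5:123677949-123678248, plus strand) there is a match to each.
Psmg4: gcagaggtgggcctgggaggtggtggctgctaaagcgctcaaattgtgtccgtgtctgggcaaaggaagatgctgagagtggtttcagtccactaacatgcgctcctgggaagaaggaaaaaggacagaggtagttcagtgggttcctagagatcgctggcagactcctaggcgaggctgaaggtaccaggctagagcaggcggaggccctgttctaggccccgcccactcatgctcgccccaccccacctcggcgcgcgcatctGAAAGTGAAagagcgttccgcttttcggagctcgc
Psmd9: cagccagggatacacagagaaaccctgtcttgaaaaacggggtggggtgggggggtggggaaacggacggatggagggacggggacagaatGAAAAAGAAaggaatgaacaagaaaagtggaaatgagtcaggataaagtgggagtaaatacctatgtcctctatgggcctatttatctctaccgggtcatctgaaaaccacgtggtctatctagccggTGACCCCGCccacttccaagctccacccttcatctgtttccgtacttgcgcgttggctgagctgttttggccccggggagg

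Among all members, 42 RefSeq promoters of 40 genes could be searched on both strands for the 3 patterns, which do not exclude each other. TGACNNNGC was in 6 (14.3%), against 12.4% of the 32851 promoters of the table, GAAANNGAA in 6 (14.3%) against 8.56%, and CCAAT in 13 (31.0%) against 37.4%. The carriers of TGACNNNGC were Psmb5, Psmb6, Psmc6, Psmd9, Psmd12 and Psme4, and Psmb10 held none of the 3 patterns.

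Few proteasome genes differed between CPA and DMSO. At 37 °C 0 of 46 members were at least 2-fold higher (2.40% of all genes) and 0 lower (1.59%), and at the small fold 5 were higher (15.7% of all genes) and 2 lower (17.8%), so a smaller share of members than of all genes passed the smaller fold. At 25 °C 0 of 45 members were past 2-fold in either direction (0.142% of all genes higher and 0.118% lower) and 0 were past the small fold (4.42% higher and 5.09% lower). No member was past the small fold in both. With scaling to Gapdh 8 members were past the small fold above and 1 below at 37 °C, and 2 above and 0 below at 25 °C. Without scaling it was 1 above and 4 below at 37 °C, so the direction of these few calls rests on the scaling. The shares of all genes under these scalings were not counted.

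**Figure D4:**
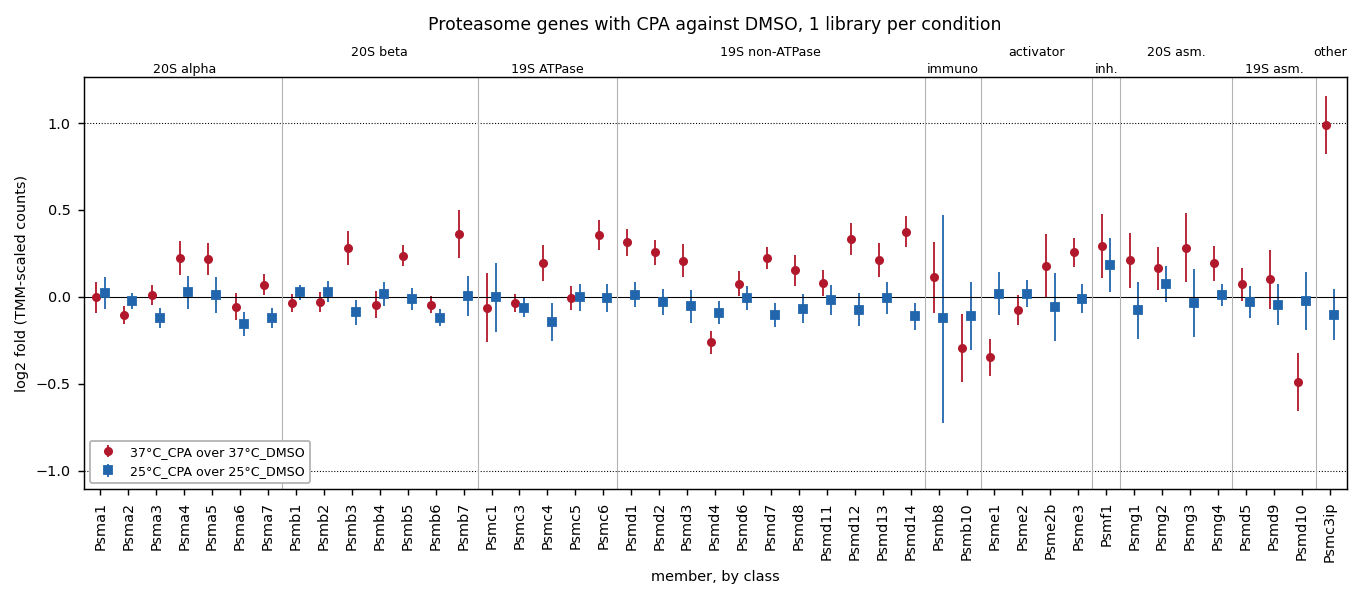
Log2 fold with CPA over DMSO for the members measured in both comparisons (Psmb9 and Psme4 are not drawn), grouped by class, at 37 °C (circles) and 25 °C (squares); bars are 95% counting intervals and dotted lines mark 2-fold. At 25 °C all points lie close to 0, and at 37 °C Psmc3ip reaches nearly 1 while Psmd10 and Psme1 are the lowest.

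The 5 members that were higher at 37 °C were Psmd14, Psmb7, Psmc6, Psmd12 and Psmc3ip. Psmd14 had a fold of 1.30 (1.22 to 1.38), Psmb7 1.29 (1.17 to 1.42), and the ATPase gene Psmc6 1.28 (1.20 to 1.36). Psmd12, a lid subunit with 1727, 2010, 1864 and 1816 counts, had 1.26 (1.18 to 1.34). Except for Psmb7, whose CPA fold at 25 °C was 1.00, the same genes had folds below 1 with CPA at 25 °C, between 0.924 and 0.995. Only that of Psmd14 had an interval that excludes 1 (0.875 to 0.977). All of these folds lie above 1 with scaling to Gapdh. Psmd10, the 19S chaperone, and Psme1, the PA28 subunit, were the 2 that were lower, at 0.712 (0.633 to 0.8001) and 0.786 (0.730 to 0.845), and both were near 1 at 25 °C (0.984 and 1.012).

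By class, the non-ATPase genes of the 19S particle had the highest CPA median of the constitutive classes at 37 °C. Of the 11 genes 10 were above 1 (median log2 fold 0.21), the exception being Psmd4 at 0.833 (0.796 to 0.872). The 7 alpha, 7 beta and 5 ATPase genes had medians of 0.01, -0.03 and -0.01, and the median of all genes was -0.02. Within these classes, however, Psmb5, Psma4 and Psma5 had folds of 1.18, 1.17 and 1.16, and Psma2 had 0.931. The ATPase gene Psmc4 had 1.15 (1.07 to 1.23). All 4 chaperones of 20S assembly were above 1, from 1.12 for Psmg2 to 1.22 for Psmg3. At 25 °C the 30 constitutive genes lay between 0.897 for Psma6 and 1.02 for Psmb2, with 22 of them below 1, among them Psmc4 as the lowest ATPase gene at 0.905 (0.840 to 0.976) (median -0.02, against 0.00 for all genes), a median whose sign changed without scaling and with scaling to Gapdh.

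Psmc3ip, the member that is no subunit, was low in 1 library. Its counts were 448 in 37°C_DMSO and 821 in 37°C_CPA, against 796 in 25°C_DMSO and 761 in 25°C_CPA. Its fold was 1.98 (1.77 to 2.23) with CPA at 37 °C and 2.06 (1.83 to 2.32) at 25 °C without CPA, and these comparisons share the 37°C_DMSO library. Between the CPA libraries the temperature fold was 0.967 (0.875 to 1.07), and CPA at 25 °C gave 0.932 (0.842 to 1.03). The 3 libraries other than 37°C_DMSO thus differed little.

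Other genes of the ubiquitin-proteasome pathway showed no common shift. Of 25 measured, 5 were past the small fold above and 7 below at 25 °C without CPA (median log2 fold -0.10), and 4 above and 5 below with CPA (median -0.13). Of all genes 29.1% and 29.0% were above and 32.2% and 30.8% below. Nfe2l1, the transcription factor that raises proteasome genes, had 1476, 1262, 1192 and 1451 counts and folds of 0.936 (0.867 to 1.011) and 1.20 (1.11 to 1.29). Ngly1, which processes the Nfe2l1 protein, had 452, 429, 684 and 700 counts and folds of 1.75 (1.56 to 1.98) and 1.70 (1.51 to 1.92). Uchl5, a deubiquitinase of the 19S particle, had 1108, 1254, 1689 and 1711 counts and 1.77 (1.64 to 1.91) and 1.42 (1.32 to 1.53), and Ecpas, which tethers the particles, had 1.46 and 1.53. Ngly1, Uchl5 and Ecpas were thus higher in both cultures at 25 °C. Zfand5, which binds ubiquitin and stimulates the proteasome, had the lowest folds, 0.510 (0.476 to 0.547) and 0.410 (0.378 to 0.445), on 2631, 2112, 1158 and 831 counts. Akirin2, needed for import of proteasomes into the nucleus, had 432, 278, 208 and 192 counts and 0.558 (0.471 to 0.660) and 0.720 (0.596 to 0.869), and Ubqln1, a shuttle for ubiquitinated proteins, had 0.595 and 0.612. With CPA at 37 °C the list ran from 0.697 for Akirin2 to 1.21 for Usp14, a deubiquitinase of the 19S particle, and 1.23 for Uchl5, and at 25 °C from 0.699 for Zfand5 and 0.874 for Ube3c to 1.14 for Nfe2l2 and 1.19 for Nfe2l1.

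For scale, other complexes of many subunits were described in the same way. The 79 measured cytosolic ribosomal protein genes had median log2 folds at 25 °C of 0.31 without CPA and 0.27 with CPA, beside 0.29 and 0.19 for the 20S core. The 8 chaperonin genes had 0.21 and 0.05, beside 0.22 and 0.05 for the 19S genes, and the 9 genes of the COP9 signalosome, which resembles the 19S lid, had -0.09 and -0.12. These are descriptions, and no difference between complexes was tested.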

How the data were processed

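CAGE libraries from cultured mouse tooth germs were made in 4 conditions, 1 library each. The authors aligned the tags to mm9, turned the mapped reads into transcription start sites with SAMtools of MOIRAI, and deposited raw whole-number counts for each gene. BWA 0.5.9, mm9 and GRCh38 stand in the submitters' processing notes with no role, and how tags were annotated and summed was not given in the sources used here. Intervals cover counting error only, because each condition had 1 library. Tags were not told apart by molecular identifiers, so any tag counted more than once would make the intervals too narrow.

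Members were taken by symbol, and the members, classes and lists were chosen with earlier results of these data known. TMM factors (1.03, 1.02, 0.967 and 0.980) were computed with edgeR 4.0.16 in R 4.3.3, and folds and exact 95% intervals with SciPy 1.17.1 in Python 3.11.15. The small fold was a ratio that is 25% above or 20% below 1. A count of 0 would be set to 3 counts. Counts, with intervals for the main comparisons of each, were given for the catalytic pairs, for members past 2-fold, and for members at either end of a class (at most 2 at each end in a comparison, with a minimum of 200 counts). Other folds were given without an interval. Other lists were named by the same rule with Nfe2l1, Tap1 and Irf1, and some named by it are not reported here. Gene positions on mm9 (GENCODE vM1) were matched for 46 of 47 members, and promoters from RefSeq. The calculations were tested on simulated data. No proteins were compared, because no protein table was used here. The alternatives were other scalings (none, total count, DESeq2 1.42.0 size factors, upper quartile factors, Gapdh), other minimum counts, 10 counts added, genes with shared counts left out, interval-based calls, a fold of 1.5 and other ways to summarise a class.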

Additional observations from a re-analysis of the deposited data

Results flagged for a closer look

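In 5 members the fold with CPA lay above 1 at 37 °C and below 1 at 25 °C, each with a counting interval that excludes 1. With 1 library per condition the difference between the temperatures was not tested. How many of all genes met these criteria was not counted, and high counts make an interval narrow even at a small fold. The opposite signs rest on the scaling, since scaling to Gapdh moved every log2 fold at 25 °C by 0.28, which puts all 5 above 1, and no scaling moved those at 37 °C by -0.11, which puts Psma7 below 1. The alpha subunit gene Psma7 had 1.0498 at 37 °C and 0.918 at 25 °C, and the beta subunit gene Psmb3 had 1.21 and 0.940. The ATPase gene Psmc4 had 1.15 and 0.905. In the lid of the 19S particle, Psmd7 had 1.17 and 0.929, and its partner, the deubiquitinase gene Psmd14, had 1.30 and 0.924. All of these folds but that of Psmd14 at 37 °C differ from 1 by less than 25%, and the comparisons at 37 °C and 25 °C share no library.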

How the results depend on the processing

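No log2 fold of at least 1 in size changed sign under the alternatives tried, but smaller ones did, mostly with Gapdh or without scaling. Without scaling Psmb5 and Psmb10 had -0.04 and -0.17 at 25 °C with DMSO, and with Gapdh Psmb5 had 0.58 at 25 °C with CPA. No paired analysis was possible because each condition has 1 library. Single-gene folds under other scalings were checked for Psmb3, Psmb5 to Psmb10, Psmd9, Psmg4 and Psmc3ip only. Of these, 155 stayed within the counting interval and 45 left it. Scaling to Gapdh moved the all-gene median (log2) by 0.04 and 0.28 in the CPA comparisons (37 °C, then 25 °C) and by 0.43 and 0.66 in the temperature comparisons (DMSO, then CPA), and no scaling moved it by -0.11, 0.04, -0.21 and -0.06, so sizes depend on the scaling. In the same order, the counts of members became as follows, with no share of all genes counted under these settings. With Gapdh, CPA at 37 °C had 1 member at least 2-fold higher, 9 and 12 were higher and 1 and 1 lower by temperature, and at the small fold 8 were higher and 1 lower with CPA at 37 °C, 2 higher with CPA at 25 °C, and 42 and 44 higher by temperature. Without scaling, 2 members were at least 2-fold higher at 25 °C with DMSO, and at the small fold 10 were higher there, while CPA at 37 °C had 1 higher and 4 lower. Calls whose interval also lies beyond the fold left 1 member 2-fold lower in each temperature comparison, 1 member 2-fold higher between the CPA libraries, and 1 higher and 0 lower at the small fold with CPA at 37 °C. A minimum of 200 counts left Psmb8 as the 1 member lower in both temperature comparisons at 2-fold, and as the 1 lower at the small fold between the CPA libraries. With 10 counts added, 1 was 2-fold lower there, and with no minimum count 1 was past the small fold above with CPA at 25 °C. At 1.5-fold, 1 member was higher with CPA at 37 °C and 9 and 5 by temperature.

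The median log2 fold of the constitutive subunits became 0.16, 0.25, 0.68 and 0.82 with Gapdh, 0.0016, 0.0165, 0.042 and 0.10 without scaling, -0.0021, 0.17 and 0.099 with the total count (from the second comparison on), and -0.043 at 25 °C with upper quartile factors. Taken by class it was 0.0042, -0.0053, 0.29 and 0.19 for the 20S core, -0.0088, -0.0073, 0.15 and 0.026 for the ATPases and 0.21, -0.056, 0.30 and 0.081 for the other 19S subunits, and the summed counts gave 0.071, -0.046, 0.29 and 0.18. The log2 fold of the summed immunoproteasome genes was -1.35 and -1.17 by temperature as a median of the 3 genes, -2.43 and -2.55 without Psmb10 and -0.0704 and 0.096 without Psmb8. With CPA at 37 °C it was 0.090 without Psmb10 and -0.26 without Psmb8. Gapdh gave 0.18 with CPA at 25 °C and -0.25 and -0.0155 by temperature, and no scaling gave -0.89 between the DMSO libraries. The 3 catalytic pairs summed gave shares of 7.50%, 6.65%, 4.06% and 3.99%. Counts limit Psmb9 and Psme4 most.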
